A study of Mus musculus with 4 samples.

Results

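The transcripts of 10 neuropeptide genes, Penk, Tac1, Pdyn, Sst, Npy, Vip, Cck, Oxt, Avp and Cartpt, were followed across the neuron classes of the mouse brain and in near-empty barcodes. They were taken by gene symbol from the 32285 genes of the count matrices, as a list proposed with earlier results of these data known, and all 10 were detected. The data are single-nucleus RNA sequencing of brain nuclei from female 5XFAD mice, a model of amyloid disease whose transgenes are driven by the neuronal Thy1 promoter. Mice of 7 to 10 weeks by the labels, and over a wider range of ages by the study's methods, were injected intravenously with extracellular vesicles (EVs) that were either low or high in phosphatidylethanolamine (PE-low or PE-high EVs). Each group had 2 libraries, each pooled from 2 mice, and all 4 libraries carried the 5XFAD transgenes and received EVs, so an untreated or vehicle group was not analysed here. Nuclei came from cryosections, and the levels of the brain that went into each library are not given in the sources used here.

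Neuropeptides are made as larger precursors that are cut by prohormone convertases, trimmed by carboxypeptidase E, often amidated, and stored in dense-core vesicles until they are released onto G protein-coupled receptors. Penk (enkephalins) marks indirect pathway projection neurons of the striatum, and Tac1 (substance P) with Pdyn (dynorphins) marks the direct pathway. Sst and Vip divide cortical interneurons of medial (MGE) and caudal (CGE) ganglionic eminence origin, Npy lies in subsets of both, Cck is used by interneurons and many pyramidal cells, and Oxt and Avp belong to magnocellular and related neurons of the hypothalamus.

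The libraries held 41470611, 43272337, 32515094 and 29472021 unique molecular identifiers (UMIs, each a counted transcript molecule) for PE-low replicates 1 and 2 and PE-high replicates 1 and 2, the order used below wherever 4 values are given. After filtering 10688 nuclei were kept, 9221 of them neurons, with 1457 to 3457 nuclei a library and medians of 1712 to 2885 UMIs. Any 2 libraries shared 0 to 4 cell barcodes. PE-low replicate 2 stood apart in its makeup, with 473 of 2996 nuclei in the subcortical inhibitory-like class against 109 of 2778, 60 of 1457 and 272 of 3457 in the others, and results that rest on it are given with that library named. Levels are given as CPM, the UMIs of a gene over all UMIs of a class in a library, on the field's usual scale. CPM was not divided by gene length, and levels are compared between classes, not between genes.

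Nuclei were clustered without the 10 genes, so a level in a class is not what defined the class, and classes were named X-like from other markers. Striatal nuclei formed direct-like (736), indirect-like (939) and other striatal-like (1123) classes, and the indirect-like class joined 521 nuclei led by Drd2 and Adora2a with 418 led by Npas3. The other striatal-like class is a remainder that joined subclusters of 254, 220, 209, 199, 155 and 86 nuclei. Their direct and indirect marker scores differed, at 0.393 and -0.985 in that of 209 and -0.358 and 0.293 in that of 220 nuclei. Cortical excitatory nuclei formed upper layer-like, middle layer-like, layer 5-like, layer 6 corticothalamic-like and other cortical excitatory-like classes. Interneurons formed MGE-like (495) and CGE-like (163) classes. A subcortical inhibitory-like class of 914 nuclei was led by Baiap3 and Prlr, and 590 neurons led by Ndst4, Tafa2 and Lmo3 stayed unnamed. Beside these 12 neuron classes, astrocyte-, oligodendrocyte-, oligodendrocyte precursor- and microglia-like nuclei served to show the level outside neurons. They were not taken to be free of these transcripts or to be pure. In a finer clustering (resolution 1.6), 321 nuclei were oligodendrocyte-like, and 144 led by Prr5l and Aspa fell to an unnamed neuron cluster. Likewise 173 nuclei were microglia-like beside 50 endothelial-like, and 230 were precursor-like beside 75 oligodendrocyte-like nuclei led by 9630013A20Rik and Cnksr3. The ranges of glia-like classes given below may therefore be those of mixtures. The closest class profile was that of the nucleus's own class for 90.7% of nuclei. The profiles were summed from these same nuclei, so this value is not an independent check of the classes. Medians were 1449 to 2845 UMIs over libraries in indirect-like, 1498.5 to 2800 in CGE-like and 1812.5 to 3044 in MGE-like nuclei, and 904 to 1468 in astrocyte-like, 891 to 1638 in precursor-like and 1231 to 2497 in microglia-like nuclei. For shares of nuclei with a UMI, each nucleus was therefore thinned to 500 UMIs. This left out 8 and 33 of the nuclei of PE-high replicates 1 and 2 and none of the PE-low nuclei. Thinning matched depth between classes and not the part of near-empty RNA in them.

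The 5′ flanks of the genes were read from RefSeq (GRCm38.p6), where 9 of the 10 genes had an entry; Penk is named only. The flanks of Oxt and Avp are shown because these neighbouring genes moved together across libraries. On chromosome 2 Oxt lies on the plus strand at chr2:130576173-130577054 and Avp on the minus strand at chr2:130580620-130582554 (GRCm38), with their 3′ ends facing each other 3565 bases apart. The 250 bases before each start are printed 5′ to 3′ on the strand of the gene (Oxt chr2:130575919-130576168, Avp chr2:130582589-130582838), and capitals mark TGACCT on either strand, the core letters of many nuclear receptor sites, with AGGTCA as its reverse.
Oxt: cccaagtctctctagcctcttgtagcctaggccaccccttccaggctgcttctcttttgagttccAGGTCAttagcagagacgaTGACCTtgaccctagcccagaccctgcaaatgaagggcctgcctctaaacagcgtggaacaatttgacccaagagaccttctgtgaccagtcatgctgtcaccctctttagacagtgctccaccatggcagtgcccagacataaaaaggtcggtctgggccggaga
Avp: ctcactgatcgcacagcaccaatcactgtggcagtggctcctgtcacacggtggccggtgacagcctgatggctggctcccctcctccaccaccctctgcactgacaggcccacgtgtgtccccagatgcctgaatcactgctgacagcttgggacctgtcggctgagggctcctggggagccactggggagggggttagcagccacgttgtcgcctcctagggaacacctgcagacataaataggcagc

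TGACCT was found in the flank of 1 member, Oxt, at 2 positions, and in 14.0% of the 32851 RefSeq promoters searched over the same 250 bases. A second set is shown because cyclic AMP is a known regulator of neuropeptide genes and 2 members held its palindromic element TGACGTCA, a motif in 1.55% of promoters. Windows of 30 bases are given for Sst (chr16:23890874-23890903, minus strand), Cartpt (chr13:99900777-99900806, minus strand) and Vip (chr10:5639128-5639157, plus strand), with TGACGTCA or, in Vip, its shorter form TGACGT in capitals.
Sst: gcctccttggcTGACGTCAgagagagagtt
Cartpt: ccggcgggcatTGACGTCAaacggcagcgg
Vip: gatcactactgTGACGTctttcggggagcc

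TGACGT, which is contained in the longer motif, was found in 6.47% of promoters on either strand and in 3 members, Sst, Vip and Cartpt. TATAAA was found in 12.4% of promoters and, among the members, in Vip. These are matches of letters in a window, and the 3 genes with TGACGT were not alike in level or class, as the values below show.

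All 10 transcripts were more abundant in near-empty barcodes than in nuclei, in each of the 4 libraries. Near-empty barcodes are droplets below the nuclei in size (medians of 187 to 265 UMIs), and their sum describes the RNA that was free or in small debris. As in bulk RNA, more source cells and more RNA per source cell cannot be told apart in that sum. Cck was at 1278, 999, 1523 and 1426 CPM in near-empty barcodes and at 177, 119, 211 and 187 CPM in nuclei. Sst was at 520, 535, 512 and 574 CPM against 72.5, 71.7, 68.7 and 81.4 CPM. Both were several times higher outside the nuclei, with no overlap between the 2 sets of values.

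The striatal peptides followed the same pattern with more spread between libraries. Penk was at 546, 301, 398 and 419 CPM in near-empty barcodes and at 107, 48.5, 70.7 and 87.0 CPM in nuclei. Tac1 was at 541, 236, 415 and 478 CPM against 80.2, 38.7, 73.7 and 75.9 CPM. Pdyn was at 56.5, 38, 53.9 and 47.0 CPM against 13.0, 7.99, 10.6 and 8.40 CPM. PE-low replicate 2 was the lowest library for each of these 3 genes, in nuclei and outside them.

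Npy, an inhibitory peptide of interneurons, was at 355, 307, 429 and 424 CPM in near-empty barcodes and at 49.4, 39.3, 58.5 and 53.4 CPM in nuclei. Vip was at 90.1, 92.0, 106 and 102 CPM against 18.1, 16.2, 17.2 and 14.5 CPM. Cartpt, the precursor of cocaine- and amphetamine-regulated transcript peptides, was at 64.0, 41.6, 70.4 and 78.8 CPM against 12, 4.72, 9.91 and 9.80 CPM. These 3 also separated without overlap.

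Oxt and Avp had the widest range over libraries. Oxt was at 29.6, 740, 14.9 and 88.1 CPM in near-empty barcodes and at 4.19, 76.4, 1.98 and 12.9 CPM in nuclei. Avp was at 1.62, 289, 5.34 and 35.3 CPM against 0.145, 29.7, 0.991 and 4.98 CPM. PE-low replicate 2 was far above the other libraries in both sets, PE-high replicate 2 came second, and within every library the near-empty value was the higher one.

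**Figure D1:**
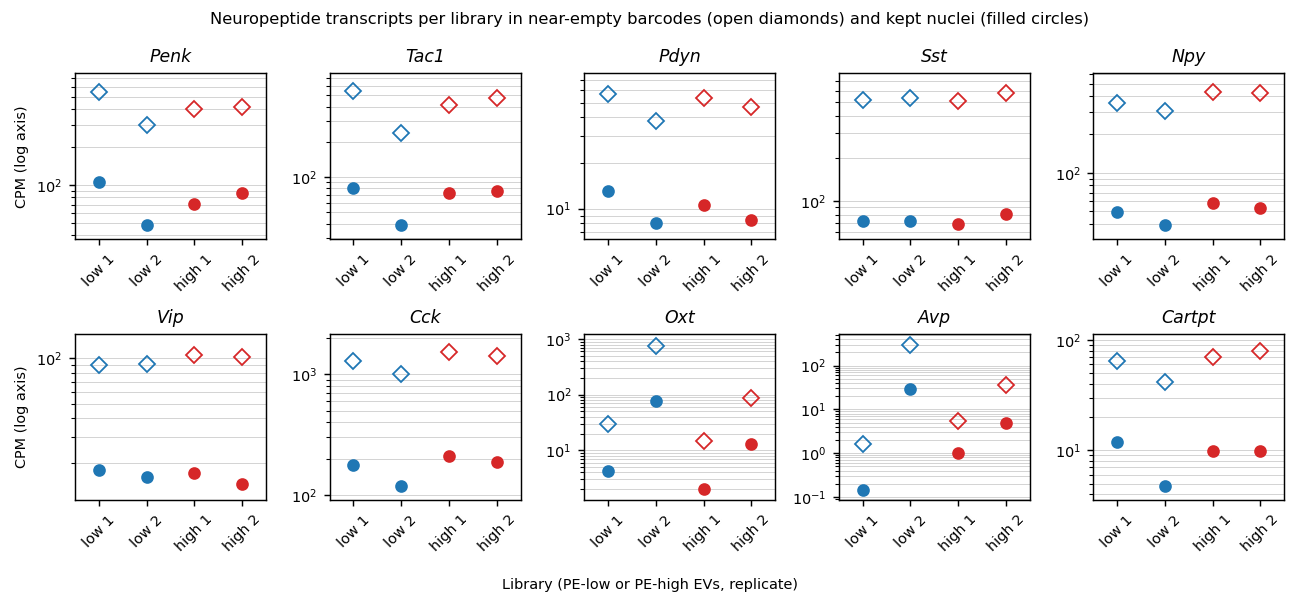
CPM (log axis) of each of the 10 genes in the 4 libraries, blue for PE-low and red for PE-high EVs, with open diamonds for near-empty barcodes and filled circles for all kept nuclei of the library. The diamond lies above the circle in all 4 libraries of every gene, and Oxt and Avp peak in PE-low replicate 2 at 740 and 289 CPM in near-empty barcodes.

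With edgeR's quasi-likelihood test and the library as a block, all 10 members were higher in near-empty barcodes at an adjusted p below 0.1, in a comparison in which 90.1% of 14987 tested genes were called and 44.7% were called higher. A count of 10 is therefore to be read beside the size of the differences. Log2 fold changes ran from 2.37 ± 0.10 (SE) for Pdyn, through 2.52 for Penk, 2.63 for Vip, 2.73 for Tac1, 2.90 for Cartpt, 2.95 for Sst, 3.01 for Npy, 3.02 for Cck and 3.18 for Oxt, to 3.25 ± 0.11 for Avp. The largest of the 10 adjusted p-values from edgeR was 1.06e-26. The median over the members was 2.93, against -0.03 over all tested genes. Only 3 members (Penk, Cck and Oxt) passed the test when barcodes of 10 to 50 UMIs were used, a pool of 52703 UMIs in which Pdyn had 0.

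The members are short genes, from 882 bases for Oxt to 13280 bases for Pdyn, and gene span moved with this contrast. With genes in 4 bins of equal number by span, the median log2 fold change was 1.51 in the shortest bin and 0.51, -0.24 and -1.22 in the next bins. Among the 4655 genes no longer than Pdyn, the median was 1.35 and 70.8% were called higher. Within those short genes Pdyn stood at the 79.7th percentile, Penk at the 84.4th, Vip at the 87.9th, Tac1 at the 90.5th, and Avp, the highest, at the 99.7th. Nuclear transcripts of long genes hold many intronic reads, and the part of gene span, of introns and of cytoplasmic RNA in the difference was not tested. Penk overlaps A830012C17Rik on the opposite strand (Penk chr4:4133531-4138819, minus strand, GRCm38), so some of its reads could be shared if strand was not used in counting.

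**Figure D2:**
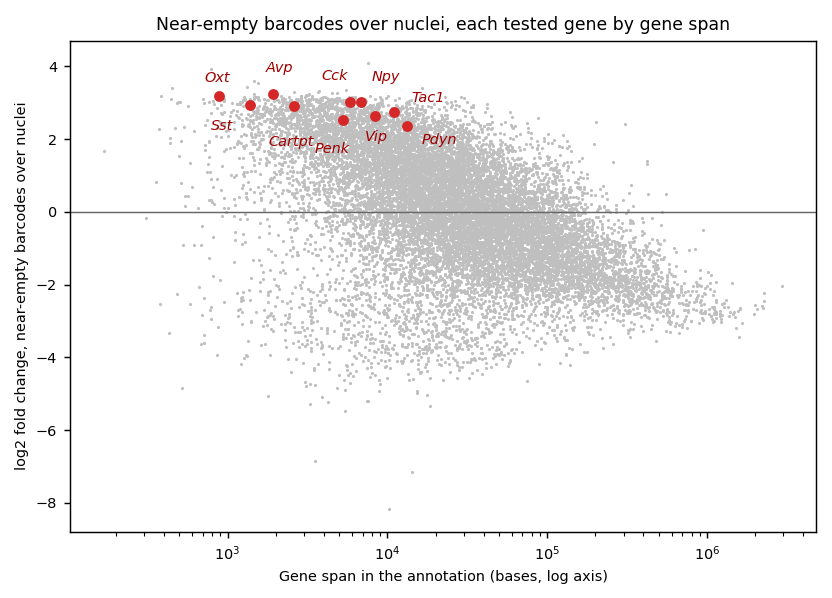
Log2 fold change of near-empty barcodes over nuclei (edgeR) against gene span in bases (log axis), with a grey point for each tested gene and a red point for each of the 10 neuropeptide genes. Values fall with span, from a median of 1.51 in the shortest of 4 equal bins to -1.22 in the longest, and the 10 genes lie between 2.37 and 3.25, from the 79.7th to the 99.7th percentile of genes as short as they are.

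Mitochondrial share moved with the members too. In called barcodes grouped by mitochondrial UMIs, the mean CPM of Cck was 169 at or below 3%, 225 from 3% to 5%, 286 from 5% to 10%, 398 from 10% to 15% and 577 above 15%, and it was 1307 in near-empty barcodes. Sst went from 70.4 through 102, 136 and 174 to 252 CPM over the same bins. Every member was higher in the bin above 15% than in that at or below 3%, and 7 of the 10 rose at each step. Near-empty barcodes had 10.6% to 14.2% mitochondrial UMIs.

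Penk separated the pathways of the striatum. It was at 362, 241, 307 and 309 CPM in indirect-like nuclei (305 ± 49.5, SD, n = 4 libraries) and at 86.0, 28.5, 48.7 and 68.1 CPM in direct-like nuclei (57.8 ± 24.8). The ranges did not overlap. Other striatal-like nuclei had 101 ± 38 CPM, and the other neuron classes had means of 24.2 in layer 5-like to 65.2 CPM in CGE-like nuclei.

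Measured against the near-empty barcodes of the same library, indirect-like nuclei held Penk at 74.4% of the near-empty level (66.3% to 80.2%). Direct-like nuclei held 13.4%, and the glia-like classes 13.8% to 27.7%. Thinned to 500 UMIs a nucleus, 13.2% of indirect-like nuclei had a Penk UMI, against 2.99% of direct-like, 5.33% of astrocyte-like and 7.27% of microglia-like nuclei. Unthinned, 391 of the 939 indirect-like nuclei had one. Of 255 nuclei with at least 2 Penk UMIs, 140 were indirect-like, and of 54 with at least 3, 38 were. Other striatal-like nuclei came next, with 33 of the 255 and 8 of the 54. As a class they were at 24.1% of the near-empty level, within the range of the glia-like classes, and the remaining neuron classes were within or below it. The part of near-empty RNA in these levels was not tested.

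Tac1, the precursor of substance P and neurokinin A (chr6:7554879-7565834, plus strand), was highest in other striatal-like nuclei, at 196, 112, 160 and 166 CPM (159 ± 35). Direct-like nuclei had 134, 95.9, 109 and 148 CPM (122 ± 23.4) and indirect-like nuclei 79.1, 16.6, 102 and 85.4 CPM (70.9 ± 37.5). Direct-like exceeded indirect-like nuclei in all 4 libraries, although the ranges overlapped across libraries. As a share of the near-empty level Tac1 was at 39.2% in other striatal-like, 30.7% in direct-like, 16.0% in indirect-like nuclei. Among glia-like classes it was at 17.4% in astrocyte-like and 29.2% in oligodendrocyte precursor-like nuclei. Thinned, 6.95% of other striatal-like and 6.69% of direct-like nuclei had a Tac1 UMI, and 7.66% of precursor-like nuclei did (25.7%, 22.2% and 15.4% unthinned), so that the striatal shares did not exceed that of precursor-like nuclei. Of 26 nuclei with at least 3 Tac1 UMIs, 18 were other striatal-like.

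Pdyn (chr2:129686565-129699844, minus strand) was sparse, with 247 UMIs over all kept nuclei. It was at 30.4, 27.2, 34.3 and 19.1 CPM in other striatal-like nuclei (27.8 ± 6.47). Indirect-like nuclei had 16.6 ± 7.54, direct-like 15.1 ± 7.69 and MGE-like 14.6 ± 7.65 CPM, and these 3 did not differ beyond their spread. In the other 8 neuron classes the means were 3.62 to 6.51 CPM. Oligodendrocyte-like nuclei had 13.3 ± 7.66 and astrocyte-like nuclei 10.5 ± 7.43 CPM, which overlapped with the direct-like, indirect-like and MGE-like values. Thinned, 1.32% of other striatal-like nuclei had a Pdyn UMI, against 0.381% of oligodendrocyte-like and 0.388% of astrocyte-like nuclei (5.41%, 2.25% and 1.36% unthinned). As a share of the near-empty level Pdyn was at 57.4% in other striatal-like and 27.3% in oligodendrocyte-like nuclei. Tac1 and Pdyn were detected together in 23 of 1123 other striatal-like nuclei, where the product of their shares gives 14.7, and Tac1 and Penk in 46 of 939 indirect-like nuclei, where it gives 47.1.

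In the edgeR test of direct-like against indirect-like nuclei, 2 of the 5 members that passed the filter on low counts were called, where 7.59% of 6479 genes were, 3.81% higher and 3.78% lower in direct-like nuclei. Penk was lower in direct-like nuclei (log2 fold change -2.39 ± 0.15, SE, edgeR adjusted p = 4.86e-38). Tac1 was higher (0.98 ± 0.17, edgeR adjusted p = 2.55e-06). Cck, Npy and Sst did not pass, at 0.13 ± 0.13, -0.08 ± 0.23 and -0.28 ± 0.20, and 2 standard errors around the Cck value reached from -0.12 to 0.39. Pdyn, Vip, Oxt, Avp and Cartpt were too low to be tested.

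**Figure D3:**
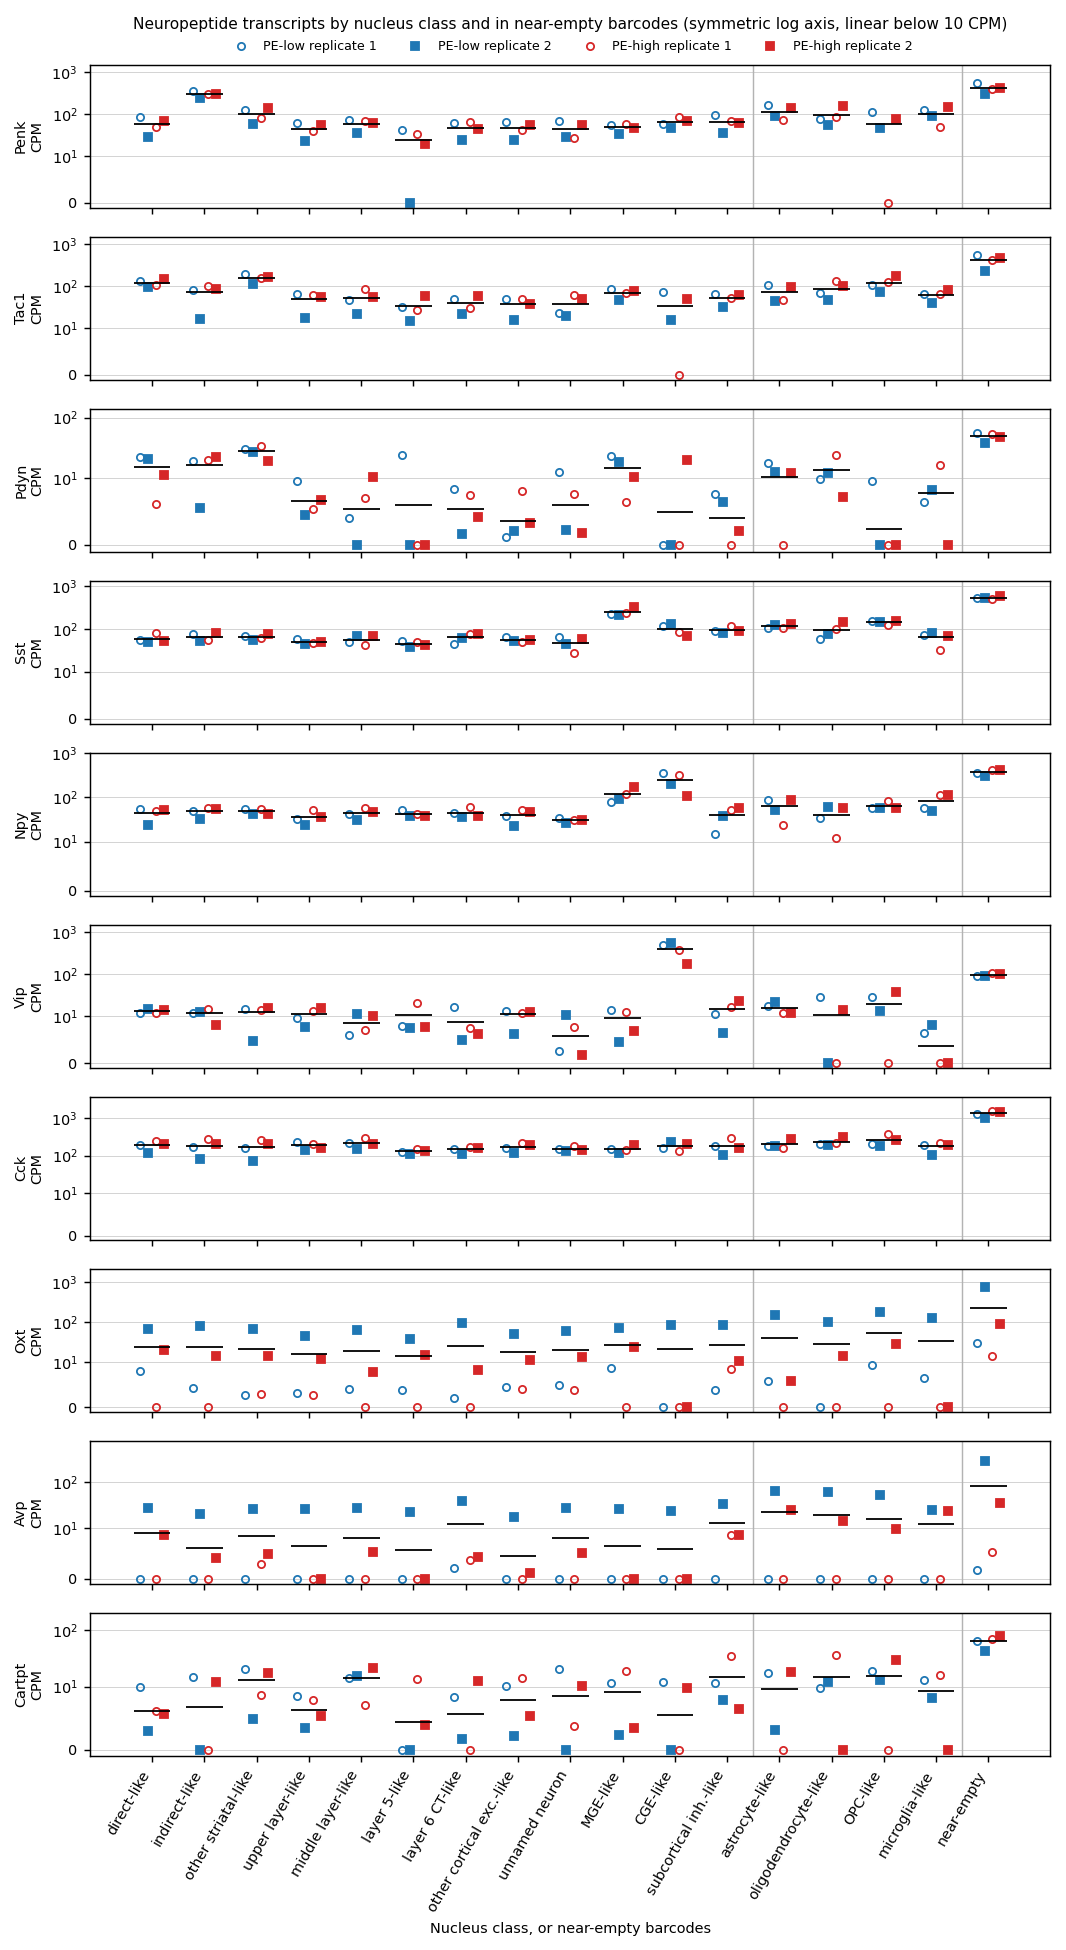
CPM of each of the 10 genes (1 panel a gene, symmetric log axis that is linear below 10 CPM) in 12 neuron classes, 4 glia-like classes and near-empty barcodes. Points are the 4 libraries, black lines their means. Penk rises to a mean of 305 CPM in indirect-like nuclei, Vip to 403 CPM in CGE-like and Sst to 248 CPM in MGE-like nuclei, while Cck is nearly level over the classes.

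Striatal-like nuclei as a whole were set against cortical excitatory-like nuclei. Penk was at 200, 102, 138 and 179 CPM in striatal-like and at 62.1, 24.8, 47.6 and 51.0 CPM in cortical nuclei. Tac1 was at 138, 77.8, 132 and 135 CPM against 52.6, 18.5, 50.4 and 49.95 CPM. Pdyn was at 24.1, 18.5, 23.6 and 18.3 CPM against 7.19, 2.31, 6.30 and 5.00 CPM. None of these 3 overlapped between the classes.

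Of the 9 members tested in that comparison 6 were called, where 47.1% of 11473 genes were, 23.4% higher and 23.7% lower in striatal-like nuclei. The 3 striatal peptides had log2 fold changes of 2.06 ± 0.24 (SE, Pdyn), 1.79 ± 0.10 (Penk) and 1.54 ± 0.11 (Tac1), each with an edgeR adjusted p of 4.62e-08 or less. Smaller values were called for Oxt (0.34 ± 0.16, edgeR adjusted p = 0.0934), Npy (0.29 ± 0.12, 0.0565) and Sst (0.25 ± 0.10, 0.0543), with overlapping ranges. Those 3 calls were lost with DESeq2, without the filter on low counts, at a threshold of 0.05 and without PE-low replicate 1, and that for Sst also without PE-high replicate 2. Cck was at 0.00 ± 0.09, with 2 standard errors from -0.18 to 0.19. Vip and Cartpt did not pass, at 0.31 and 0.37, and Avp was not tested.

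Vip had the largest difference between classes among the members tested. In CGE-like nuclei it was at 503, 544, 390 and 176 CPM (403 ± 165), and the other 11 neuron classes had means of 5.72 to 14.6 CPM. The lowest CGE-like library was far above every other class, and each CGE-like value rests on only 24 to 58 nuclei a library. CGE-like nuclei were the one neuron class in which Vip exceeded the near-empty level of its own library, at 172% to 591% of it.

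Thinned to 500 UMIs, 20.1% of CGE-like nuclei had a Vip UMI, against 0.169% of MGE-like and 1.54% of astrocyte-like nuclei (31.7%, 2.11% and 2.51% unthinned). Of 34 nuclei with at least 2 Vip UMIs, 27 were CGE-like, and all 10 nuclei with at least 5 were. The highest nucleus held 16 Vip UMIs of 4056.

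Sst (chr16:23889573-23890958, minus strand) was highest in MGE-like nuclei, at 218, 214, 229 and 332 CPM (248 ± 56.4). CGE-like nuclei had 120, 130, 86.6 and 68.5 CPM (101 ± 28.7), which did not overlap with the MGE-like values. The other neuron classes had means of 44.7 to 94.1 CPM, and oligodendrocyte precursor-like nuclei had 145 ± 14.1 CPM. The CGE-like level, at 19.1% of the near-empty level, was within the 11.8% to 27.0% seen in glia-like classes, whereas MGE-like nuclei were at 46.2%. Thinned, 9.97% of MGE-like and 8.76% of astrocyte-like nuclei had an Sst UMI (31.7% and 16.2% unthinned). Few MGE-like nuclei carried much of the Sst, since 25 of the 33 nuclei with at least 3 Sst UMIs and all 5 with at least 10 were MGE-like.

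Npy (chr6:49822710-49829507, plus strand) was present in both interneuron classes. It was at 360, 199, 325 and 108 CPM in CGE-like nuclei (248 ± 116) and at 78.5, 94.3, 121 and 175 CPM in MGE-like nuclei (117 ± 42.2). The CGE-like value was the higher one in 3 of 4 libraries and the lower one in PE-high replicate 2. All other neuron classes had means of 30.7 to 49.1 CPM, at 8.23% to 13.0% of the near-empty level. The CGE-like class was at 66.9% and the MGE-like at 30.6% of it, with 11.3% to 21.3% in glia-like classes. Thinned, 12.4% of CGE-like, 6.42% of MGE-like and 8.17% of microglia-like nuclei had an Npy UMI (32.7%, 19.6% and 14.1% unthinned).

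Within MGE-like nuclei Npy went with Sst. The 56 nuclei with at least 2 Sst UMIs had Npy at 278, 233, 605 and 691 CPM, and the other 439 had 55.2, 75.6, 82.6 and 91.5 CPM, with medians of 2225.5 and 2315 UMIs. Both were detected in 49 of 495 MGE-like nuclei, where the product of their shares gives 30.4. Counts above the product were not particular to this class, and other classes lay above or below it. Both were found in 16 layer 6 corticothalamic-like nuclei, where the product gives 9.93, and in 9 indirect-like nuclei, where it gives 11.2. Such products, here and for the other pairs of genes, are taken over libraries that differ in depth. The nucleus with the most Sst, 17 of 2018 UMIs, was also the one with the most Npy, 10 UMIs. Tac1 in the same split had 2, 1, 0 and 0 UMIs in the 13, 17, 7 and 19 nuclei with at least 2 Sst UMIs. That is 55.7, 19.4, 0 and 0 CPM, against 90.9, 49.6, 75.7 and 87.5 CPM in the others. Values from so few UMIs are uncertain. In CGE-like nuclei Vip and Npy were found together in 12 nuclei, where the product gives 14.1. The 27 nuclei with at least 2 Vip UMIs (8, 11, 3 and 5 a library) held only 3, 2, 1 and 0 Npy UMIs. That is 167, 66.2, 224 and 0 CPM, against 412, 239, 335 and 116 CPM in the other 136. These splits are descriptions and were chosen after the values were seen.

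In the edgeR test of MGE-like against CGE-like nuclei 3 of the 5 tested members were called, where 23.5% of 2789 genes were, 12.2% higher and 11.3% lower in MGE-like nuclei. Vip was lower in MGE-like nuclei (log2 fold change -5.47 ± 0.31, SE, edgeR adjusted p = 8.48e-16). Sst was higher (1.23 ± 0.25, edgeR adjusted p = 0.000282) and Npy lower (-1.02 ± 0.28, edgeR adjusted p = 0.00626). The Npy call was lost without PE-low replicate 1, at -0.58 with an edgeR adjusted p of 0.256. Tac1 (0.88 ± 0.44) and Cck (-0.40 ± 0.23) did not pass.

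Both interneuron classes together were also set against cortical excitatory-like nuclei. Vip was at 110, 129, 98.5 and 50.8 CPM against 11.1, 7.26, 11.9 and 11.8 CPM. Sst was at 199, 195, 197 and 264 CPM against 54.6, 52.5, 52.5 and 57.1 CPM. Npy was at 133, 118, 167 and 157 CPM against 38.9, 27.4, 53.2 and 42.1 CPM. The ranges were apart for each of the 3.

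Of the 7 members tested 4 were called, where 33.6% of 9611 genes were, 16.6% higher and 17.1% lower in interneurons. Log2 fold changes were 3.19 ± 0.21 (SE) for Vip, 1.92 ± 0.12 for Sst and 1.82 ± 0.14 for Npy, each with an edgeR adjusted p of 4.32e-23 or less. Tac1 was higher by 0.55 ± 0.18 (edgeR adjusted p = 0.0146), a call that was lost with DESeq2, without the filter and without either PE-low library. Penk (0.12 ± 0.19), Cck (-0.15 ± 0.11) and Oxt (0.35 ± 0.26) did not pass.

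**Figure D4:**
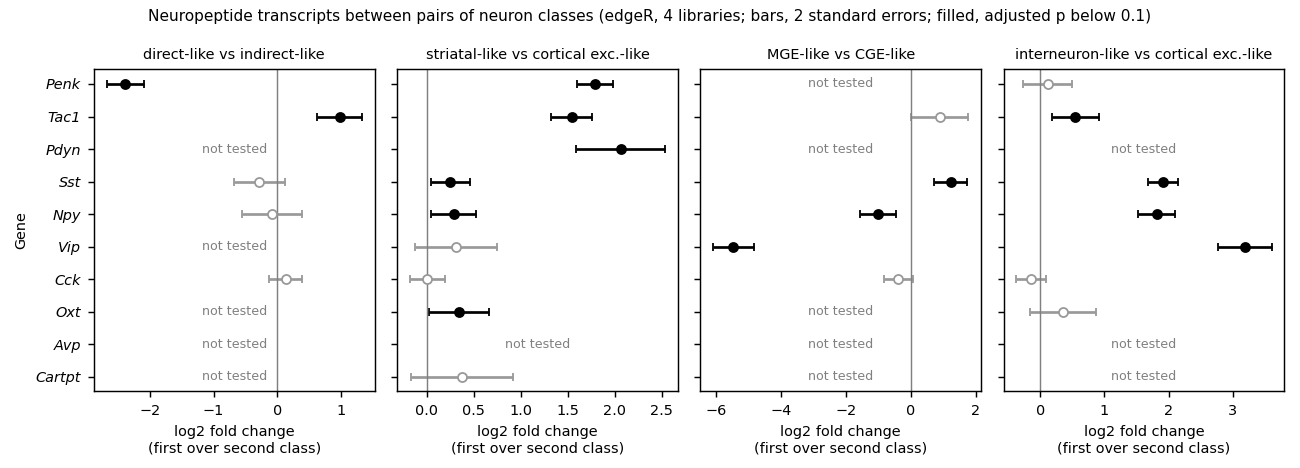
Log2 fold changes between 4 pairs of neuron classes (edgeR, 4 libraries, first class over second), with bars of 2 standard errors and filled points for an adjusted p below 0.1. Vip has the largest values, between MGE-like and CGE-like nuclei (-5.47) and between interneurons and cortical nuclei (3.19), Penk is at -2.39 between direct-like and indirect-like nuclei, and Cck has an open point in each pair.

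Cck (chr9:121489824-121495694, minus strand), the cholecystokinin precursor, was abundant and nearly level over the classes. Its mean was 213 ± 57.3 CPM in middle layer-like, 186 ± 52.2 in direct-like, 185 ± 43.1 in upper layer-like, 180 ± 45.5 in CGE-like and 148 ± 32.1 in MGE-like nuclei, and the lowest of the 12 neuron classes was layer 5-like at 131 ± 16.5 CPM. Oligodendrocyte-like (228 ± 53.5) and oligodendrocyte precursor-like nuclei (256 ± 83.8) were higher than any neuron class in the mean. Neighbours in this order overlapped.

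As a share of the near-empty level, Cck was at 10.1% to 16.2% in the 12 neuron classes and at 13.3% to 19.4% in the glia-like classes. Thinned to 500 UMIs, 5.75% (layer 5-like) to 11.3% (direct-like) of nuclei in the neuron classes had a Cck UMI, and 12.3% of astrocyte-like and 13.4% of oligodendrocyte-like nuclei did. Unthinned, the shares were 35.5% in layer 5-like and 33.1% in direct-like against 25.1% in astrocyte-like nuclei, at higher depth in the neurons. The thinned neuronal shares were within or below the 9.54% to 13.4% of glia-like nuclei. The part of near-empty RNA in either, which thinning does not match, was not tested. Of 106 nuclei with at least 3 Cck UMIs, 26 were upper layer-like and 21 other cortical excitatory-like. One exception at the level of single nuclei was a CGE-like nucleus of PE-low replicate 2 with 10 Cck UMIs of 5297, in a set in which no other nucleus reached 5.

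Cartpt (chr13:99898489-99901091, minus strand) had too few UMIs to place it. Its highest neuron class mean was 14.9 ± 12.9 CPM in subcortical inhibitory-like nuclei, followed by 14.4 ± 5.70 in middle layer-like and 12.9 ± 7.47 in other striatal-like nuclei, and it was at 0 in 4 to 5 of the 16 classes in PE-low replicate 2 and PE-high replicate 1. No nucleus had more than 2 Cartpt UMIs. The order of its classes was within the spread between libraries.

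Oxt and Avp followed the library and not the class. In PE-low replicate 2, Oxt had UMIs in all 16 classes, from 37.4 CPM in layer 5-like to 174 CPM in oligodendrocyte precursor-like nuclei, with a median of 76.3 CPM. The median over classes was 4.19 CPM in PE-low replicate 1, 0 in PE-high replicate 1 and 12.9 in PE-high replicate 2. Avp likewise had UMIs in all 16 classes of PE-low replicate 2, from 16.9 to 62.5 CPM, and in 1, 3 and 12 classes of the other libraries. Even nuclei of glia-like classes held both hormones' transcripts in that library.

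Set against the near-empty level of PE-low replicate 2, Oxt was at 5.06% to 12.8% in the neuron classes and up to 23.6% in glia-like classes, and Avp at 5.83% to 13.2% and up to 21.6%. The subcortical inhibitory-like class, at 11.3% for Oxt and 11.4% for Avp, lay within the range of the other classes. Oxt was detected in 29, 587, 6 and 78 nuclei of the libraries and Avp in 1, 248, 3 and 29. Of the 65 nuclei with at least 2 Oxt UMIs, 63 were in PE-low replicate 2.

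Few nuclei held more than a few of these UMIs. In PE-low replicate 2, a subcortical inhibitory-like nucleus held 19 Oxt UMIs of 3001 and 0 Avp UMIs, and another of the same class held 6 Avp UMIs of 2782 and 0 Oxt UMIs. The one other nucleus with at least 5 Oxt UMIs was direct-like and came from PE-high replicate 2, and no other nucleus had 3 or more Avp UMIs. Over all neurons Oxt and Avp were found together in 41 nuclei, where the product of their shares gives 13.9, a product taken over libraries that differ in both. Subcortical glutamatergic-like nuclei were also more frequent in PE-low replicate 2, with 71 against 9, 0 and 19 in the others, and their part in the Oxt and Avp levels was not tested.

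The genes whose levels ran most like each member were found over 64 points, 16 classes in 4 libraries, among 9909 genes, as a description without a test. All points of a library share its depth and near-empty RNA. Penk ran most like Adora2a (Pearson r = 0.70) and Drd2 (0.65), the adenosine and dopamine receptors that mark indirect pathway neurons. Rab3a (0.62), which is not among the class markers, came next for Penk. Sst ran like Sox6 (0.81), Btbd11 (0.75) and Nxph1 (0.72), and Vip like Frem1 (0.85), Ndnf (0.77) and Kit (0.75). Npy had Igf1 (0.72), Kcns3 (0.69) and Pde5a (0.69). Of these, Adora2a, Drd2, Sox6, Nxph1, Ndnf and Kit were among the markers that named the classes.

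The remaining members had other neighbours. Cck ran most like mt-Co3 (0.63), Atp5e (0.61) and Rpl13 (0.59), genes of the respiratory chain and the ribosome. Avp ran most like Oxt (0.87), and Oxt most like Ttr (0.63), the transthyretin gene of the choroid plexus. Tac1 had Pcp4l1 (0.67), Chchd10 (0.65) and Pcp4 (0.63), Pdyn had Rxrg (0.62) and Gabrd (0.62), and Cartpt had Chchd10 (0.55) and Cwc15 (0.55).

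The machinery that makes and releases peptides was measured in the same tests. Of 14 processing and granule genes, 10 were higher and 4 lower in near-empty barcodes than in nuclei, with a median log2 fold change of 1.69 against -0.03 over all genes, of which 44.7% were called higher and 45.5% lower. Cpe, carboxypeptidase E, was at 1305, 1320, 1273 and 1147 CPM in near-empty barcodes and at 347, 326, 336 and 326 CPM in neurons. It was higher in near-empty barcodes than in all nuclei by 1.89 ± 0.06 (SE). Pcsk2, prohormone convertase 2, was at 377, 355, 390 and 380 CPM against 871, 961, 1011 and 913 CPM and was lower, at -1.17 ± 0.06 (SE). Pam, the amidating enzyme, at -1.12, and Cadps, a dense-core vesicle priming factor, at -2.02, were also lower. Gene span was not taken into account for these genes, and the bin of longest genes had a median of -1.22.

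Of 13 other neuropeptide genes tested, 12 were higher and 1 lower in near-empty barcodes, with a median of 2.70, where 44.7% of all genes and 70.8% of the short genes were called higher. Nts (neurotensin) was higher by 2.83 ± 0.10 (SE), Tac2 (neurokinin B) by 2.80 ± 0.15 and Adcyap1 (PACAP) by 1.80 ± 0.14. The gene that was lower was Agrp, at -2.37. Its annotated span of 70696 bases overlaps Ripor1, Ctcf and others, its level was 24.5 to 40.1 CPM over the class means, and its counts are uncertain. Of 14 tested peptide receptor genes 8 were higher, 5 lower and 1 was not called, with a median of 1.00, and the opioid receptors Oprm1 (-1.57) and Oprd1 (-2.37) were lower.

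Processing and receptor genes were not left out of the clustering, so they could take part in forming the classes. Their differences between classes, here and in the next paragraph, are therefore descriptions and not independent tests. Between direct-like and indirect-like nuclei the 11 tested processing genes missed edgeR's threshold, where 7.59% of all genes were called. Their log2 fold changes were -0.40 to 0.35. Oprd1, the delta opioid receptor that binds enkephalins, was lower in direct-like nuclei by edgeR (1.999, 1.498, 0 and 2.84 CPM against 42.5, 57.0, 43.9 and 56.9 CPM). Oprm1, the mu opioid receptor, was at 12, 12, 12.2 and 36.9 CPM in direct-like against 67.4, 46.0, 82.9 and 67.1 CPM in indirect-like nuclei, a log2 fold change of -1.77 ± 0.27 (SE). In MGE-like nuclei Oprd1 was at 87.2, 115, 70.1 and 82.2 CPM, and in CGE-like nuclei it had 0 UMIs in all 4 libraries, which makes it at least 11.3-fold higher over the pooled libraries when 3 counts are taken as the floor.

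Pcsk2 was at 163, 198, 280 and 295 CPM in MGE-like and at 515, 498, 498 and 597 CPM in CGE-like nuclei, a log2 fold change of -1.24 ± 0.18 (SE). Pam went the other way, at 0.40 ± 0.16. Against cortical excitatory-like nuclei, 3 processing genes were higher and 7 lower of 14 in striatal-like nuclei (median log2 fold change -0.16). Over all tested genes, 23.4% were called higher and 23.7% lower there. In interneurons 4 processing genes were higher and 4 lower of 13 (median -0.08), where 16.6% and 17.1% of all tested genes were. Vipr1, a receptor of Vip, was lower in interneurons than in cortical excitatory-like nuclei, at 35.3, 32.3, 32.2 and 32.8 CPM in the cortical nuclei and 3.74 and 5.41 CPM in the means of MGE-like and CGE-like nuclei (log2 fold change -3.17 ± 0.41, SE). Oprk1, the kappa receptor of dynorphins, was higher in striatal-like nuclei, at 20.5, 28.8, 32.0 and 29.2 CPM against 11.1, 13.2, 21.7 and 15.7 CPM (0.92 ± 0.17).

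PE-high and PE-low EVs were compared within each neuron class, the comparison for which the study was made. Of 61 tests of members in 12 classes, 0 were called by edgeR, in a comparison in which 0.0171% of 76207 gene tests were called. Of the 61, 13 had an unadjusted p under 0.05, as did 3543 (4.65%) of the 76207 gene tests, and DESeq2 called 0. The smallest edgeR adjusted p was 0.622, for Cck in other cortical excitatory-like nuclei. Log2 fold changes were positive in 48 of the 61 tests, with a median of 0.27, and in 49.9% of the tests over all genes, and the same 4 libraries stand behind all of them. In 20 the 2 PE-high libraries lay above both PE-low libraries and in 2 below them, where 14.5% to 19.0% of tested genes lay above and 14.4% to 19.8% below in the single classes (14.9% and 18.4% in other cortical excitatory-like nuclei). With 2 libraries a group, p-values measure only the spread between these libraries, and a value that was not called is not shown to be equal.

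Cck was among the members with a wholly separated order. In other striatal-like nuclei it was at 156 and 73.5 CPM in PE-low and at 252 and 206 CPM in PE-high libraries (log2 fold change 0.95 ± 0.25, SE, edgeR adjusted p = 0.987). In indirect-like nuclei it was at 171 and 82.8 CPM against 268 and 205 CPM (0.80 ± 0.25, edgeR adjusted p = 0.995). PE-low replicate 2 was the lowest library in both. Near-empty barcodes showed the same order, as given next, so that a level in nuclei cannot be told apart from the RNA around them here. Kept nuclei also differed in depth by group, with medians of 2332.5 and 2885 UMIs in PE-low against 1877 and 1712 in PE-high libraries. An upper estimate of near-empty RNA in striatal-like nuclei, described at the end, was 27.9% and 26.0% against 32.9% and 31.8%. The part of either in these fold changes was not tested.

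In interneurons the values went in more than one direction. Npy in MGE-like nuclei was at 78.5 and 94.3 CPM in PE-low against 121 and 175 CPM in PE-high libraries (0.84 ± 0.26, edgeR adjusted p = 0.809), and Sst at 218 and 214 against 229 and 332 CPM (0.45 ± 0.20, edgeR adjusted p = 0.819). Vip in CGE-like nuclei was at 503 and 544 against 390 and 176 CPM (-1.05 ± 0.34, edgeR adjusted p = 0.886). Penk in indirect-like nuclei was at 362 and 241 against 307 and 309 CPM, with a log2 fold change of -0.01 ± 0.20. Whether the difference between PE-high and PE-low itself differed between the paired classes, or between near-empty barcodes and nuclei, was tested for 36 member values, and 0 were called by edgeR, with a smallest adjusted p of 0.348 and 4 unadjusted p under 0.05.

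In near-empty barcodes 10 members were tested and 0 called by edgeR, where 0.0% of 14131 genes were; 5 had an unadjusted p under 0.05, as did 4.78% of all genes, DESeq2 called 0 members, and the smallest edgeR adjusted p was 0.699. Cartpt (0.55 ± 0.18, SE), Cck (0.44 ± 0.19), Npy (0.44 ± 0.16) and Vip (0.27 ± 0.13) lay above both PE-low libraries in both PE-high libraries, as 9.69% of tested genes did. Tac1 (0.26), Pdyn (0.16), Sst (0.11) and Penk (0.01) overlapped. Oxt was at -2.83 ± 0.85 and Avp at -2.78 ± 1.02, and both rest on PE-low replicate 2, since PE-low replicate 1 had 29.6 and 1.62 CPM and lay within or below the PE-high values.

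The result depended on PE-low replicate 1. Without it, PE-low replicate 2 alone stood for its group, and edgeR's calls were most numerous, among members and among all genes alike. Leaving out any of the other libraries also left a group with a lone library, and gave fewer calls. Such fits take the spread from the other group only, so their calls are not read as results about the members.

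**Figure D5:**
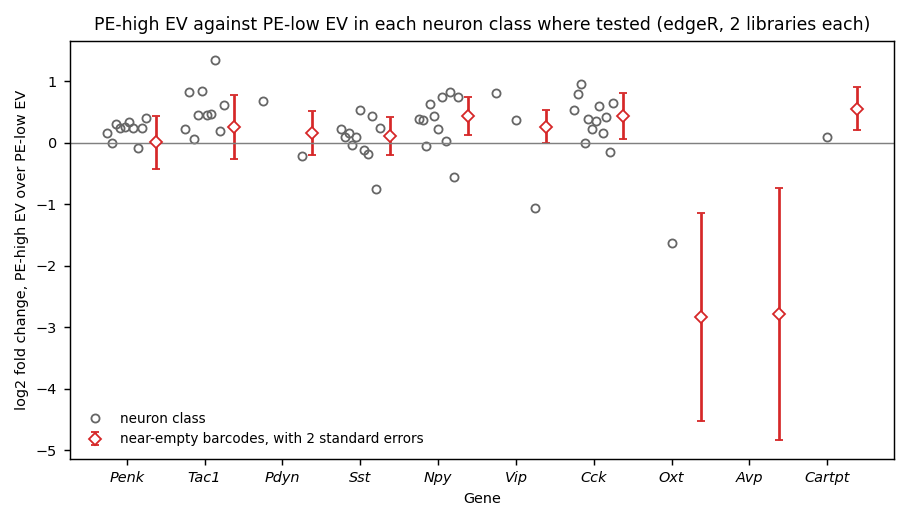
Log2 fold change of PE-high over PE-low EVs (edgeR, 2 libraries each) for each of the 10 genes. Grey circles are the neuron classes in which the gene could be tested, and red diamonds are near-empty barcodes with bars of 2 standard errors. Most circles of Tac1, Npy and Cck lie above 0, Oxt and Avp lie at -2.83 and -2.78 in near-empty barcodes, and none of the values was called.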

How the data were processed

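Nuclei of 4 mouse brain libraries were sequenced with 10x 3′ v3.1 chemistry. The authors aligned the reads and counted UMIs per gene with Cell Ranger 7.1.0 on mm10, and deposited the unfiltered count matrices. Whether intronic reads or strand were used in counting is not given in the sources used here. The members and gene lists were chosen with earlier results of these data known.

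Barcodes were called as nuclei above the knee of each library, or from 500 UMIs where the profile differed from the near-empty barcodes (false discovery rate 0.01), which gave 8719 to 13915 a library. Kept nuclei had 200 to 2500 genes and at most 3% mitochondrial UMIs, limits taken from the study's methods, and 5428 to 12447 called barcodes a library were over that limit. These limits kept 10688 nuclei, fewer than the study states, and a 15% mitochondrial limit would keep 37496. Near-empty barcodes were those from rank 45000 to 90000 with at least 10 UMIs (25503 to 32417 a library). Scrublet marked 0.309% of nuclei, too few for it to have worked, so no doublet was removed, and an alternative left out the 492 nuclei with the highest doublet scores.

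Nuclei were clustered with scanpy 1.11.5 and leidenalg 0.10.2 (2000 variable genes, 30 principal components, 20 neighbours, resolution 0.8, seed 0). The members, the listed other neuropeptide genes and mitochondrial genes were left out. Processing and granule genes and receptor genes were not left out. Clusters were named from marker scores by a rule set after the clusters were seen, and striatal clusters were clustered once more. Another reading of the markers would move class borders.

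UMIs were summed per library and class. Tests used edgeR 4.0.16 (limma 3.58.1, R 4.3.3), quasi-likelihood with TMM and filterByExpr, over all genes, with the library as a block between classes and near-empty barcodes, and with Benjamini-Hochberg adjustment and a threshold of 0.1. Standard errors are the log2 fold change over the root of F. Classes with at least 20 nuclei in every library were tested, 12 among the neurons. DESeq2 1.42.0, no filter, a threshold of 0.05, a 15% mitochondrial limit, barcodes of 10 to 50 UMIs, subtraction of the near-empty profile and leaving out each library were alternatives. The interaction test was added after the data were seen. The test was checked on simulated data. CPM intervals would cover counting error only and are not printed. Every member is named. For each member the 3 genes of highest Pearson correlation of log2(CPM + 10) were found among genes with a mean of at least 10 CPM, and in each list the 4 genes with the most UMIs in neurons are named.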

Additional observations from a re-analysis of the deposited data

Results flagged for a closer look

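Chance flags about 1 in 20 such groups of 4 values, and the libraries share their RNA between genes, so these values are not independent. All 5 values that stood far from the other 3 libraries belonged to PE-low replicate 2, with the 4 libraries taken as one group. Oxt was high in near-empty barcodes at 740 CPM, where the gap to the next library was 0.899 of the whole range, and in kept nuclei at 76.4 CPM (0.853). Avp was high in near-empty barcodes at 289 CPM (0.883) and in kept nuclei at 29.7 CPM (0.836). Tac1 was low in kept nuclei at 38.7 CPM (0.843). All 5 gaps were above Dixon's critical value for 4 values at the 95% level. The same library held 473 of the 914 subcortical inhibitory-like and 71 of the 99 subcortical glutamatergic-like nuclei, and the part of this makeup in the 5 values was not tested.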

How the results depend on the processing

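Over alternatives, 164 of 208 counts and mean levels stayed within 1.5 times the count, or within 1 SD of the level, and 44 did not. Of 222 recomputed fold changes of called members, 198 kept direction and call, 23 lost the call and 1 turned. The cause of the changes below was not tested unless the alternative itself uses fewer counts.

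With near-empty barcodes of 10 to 50 UMIs (52703 UMIs in all), 3 members and 2457 genes were called against nuclei, and Pdyn, at 0 UMIs, turned to -8.01. DESeq2 called 176 genes (492 with edgeR) between direct-like and indirect-like, 383 (656) between MGE-like and CGE-like, 3262 (5407) between striatal-like and cortical and 2012 (3231) between interneurons and cortical nuclei. The 15% mitochondrial limit gave 886, 1809 and 5804 genes for the first, second and last of these, and 6 members in place of 3 for MGE-like against CGE-like nuclei. Striatal-like against cortical nuclei gave 3 members in place of 6 with DESeq2, without the filter and at 0.05.

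For PE-high against PE-low, the classes gave 4 members and 49 genes without the filter, 1 member and 28 genes without doublet-like nuclei, and 4 genes with DESeq2, where 0 members and 13 genes were called. Near-empty barcodes gave 3 members and 116 genes without the filter, where 0 and 0 were called. With the replicate block, 2 members and 58 genes were called in the classes and 3 members and 115 genes in near-empty barcodes. Libraries with the same number deviated together only weakly (correlations of -0.014 to 0.067 in the classes and 0.125 in near-empty barcodes), and with 2 pairs the number is not taken to pair them.

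Leaving out 1 library at a time gave 320 to 508 genes for direct-like against indirect-like nuclei, 512 to 670 for MGE-like against CGE-like, and 3 to 6 members for striatal-like against cortical nuclei. For PE-high against PE-low it gave 0 to 17 members and 24 to 428 genes in the classes and 0 to 8 members and 0 to 370 genes in near-empty barcodes. The highest of each of these 4 for PE-high against PE-low, and the 320 above, came without PE-low replicate 1, where the lone PE-low library is assumed to vary like the others.

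Mean levels moved under the 15% limit for Tac1 in other striatal-like (194 CPM), Sst in MGE-like (308 CPM) and Npy in CGE-like nuclei (367 CPM). With the near-empty profile subtracted, Tac1 was at 63.6 and Pdyn at 20.02 CPM in other striatal-like and Cck at 0.0 CPM in middle layer-like nuclei. The part subtracted was an upper estimate, 22.3% to 25.9% in middle layer-like nuclei, and negative values were set to 0. The value of 0.0 for Cck is therefore a floor and not a measured absence. Depth limits Pdyn, Cartpt and Avp most, with 247, 218 and 300 UMIs in all kept nuclei.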

Other observations

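Classes too small to be tested in every library held few peptide transcripts. In 300 other inhibitory-like nuclei, Sst was at 68.9, 52.4, 115 and 59.9 CPM and Npy at 44.3, 37.8, 46.1 and 41.9 CPM, which lay among the other neuron classes. In 99 subcortical glutamatergic-like nuclei, of which PE-high replicate 1 had none, Oxt was at 0, 82.3 and 23.7 CPM in the other 3 libraries and Avp at 0, 27.4 and 0 CPM. Pdyn had 0 UMIs in that class.

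Markers of astrocytes, oligodendrocytes and red blood cells measured how much near-empty RNA neurons could hold. Their summed share of UMIs in striatal-like nuclei was 26.0% to 32.9% of their share in the near-empty barcodes of the same library. It was 27.9% and 26.0% in PE-low and 32.9% and 31.8% in PE-high libraries, without overlap between the EV groups. In cortical excitatory-like nuclei it was 17.6% to 20.9%, and in interneurons 14.4% to 18.4%, and there the EV groups overlapped. The ranges of striatal-like and cortical nuclei did not overlap. In microglia-like nuclei it was 24.1% to 47.8%. For the other glia-like classes it is not given, since their own markers can enter the sum. These percentages are upper estimates that also include any such RNA made by the nuclei themselves, and their part in the peptide levels was not tested.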
